A study of Homo sapiens with 12 samples.

Results

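The receptors for the interleukin-1 and interleukin-17 cytokine families were followed in NB4 and Kasumi-1 cells incubated with OGP46. The 10 genes were taken by symbol as members of these families: IL17RA, IL17RB, IL17RC, IL17RD and IL17RE of the IL-17 family, and IL1R1, IL1R2, IL1RAP, IL18R1 and IL18RAP of the IL-1 family. All 10 were found among the 20003 genes measured. NB4 is a human acute promyelocytic leukemia line that carries the PML-RARA fusion, and Kasumi-1 is a human acute myeloid leukemia line that carries the RUNX1-RUNX1T1 fusion. Each line gave 3 control samples, which received the solvent DMSO, and 3 samples incubated with OGP46, a small molecule, at 1 μM for 48 h. This time is that of the sample labels and the methods, whereas a legend of the study gives a longer one. Each line is a single established culture, so the samples of a group share their origin, and the labels do not say whether they came from separate cultures. Poly(A) mRNA was sequenced, and each gene has 1 FPKM value per sample, a fragment count scaled to exon length and to the library's total. FPKM is a value per length, so levels can be set side by side between genes. It carries no read count, so depth is unknown and no detection limit can be given.

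The IL-1 family receptors work in pairs. IL1R1 binds IL-1 and needs the accessory chain IL1RAP to signal, IL18R1 binds IL-18 and needs IL18RAP, and IL1R2 is a decoy that binds IL-1 without signalling. These chains carry an intracellular TIR domain, except IL1R2, and recruit the adaptor MYD88 and the IRAK kinases. In the IL-17 family IL17RA is the shared chain, which pairs with IL17RC for IL-17A and IL-17F, with IL17RB for IL-25 and with IL17RE for IL-17C, and signals through the adaptor TRAF3IP2 (ACT1), while IL17RD is a further family member. Both arms reach NF-kB and chemokine genes such as CXCL8.

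The positions of the genes are given on GRCh38 from GENCODE release 29. IL1R2 (chr2:101991844-102028544), IL1R1 (chr2:102064544-102179874), IL18R1 (chr2:102311529-102398775) and IL18RAP (chr2:102418689-102452565) lie in 1 cluster on the plus strand that spans 460722 bases from the first to the last. IL17RE (chr3:9902612-9916402) and IL17RC (chr3:9917074-9933630) are neighbours on the plus strand with 671 bases between them. IL17RB (chr3:53846580-53865800) and IL1RAP (chr3:190514051-190659750) lie elsewhere on the plus strand of chromosome 3, IL17RD (chr3:57089982-57170306) on its minus strand, and IL17RA (chr22:17084954-17115694) on the plus strand of chromosome 22. IL18R1 overlaps the gene of the IL-33 receptor, IL1RL1, by 40509 bases on the same strand, so fragments in that stretch could be assigned to either gene. IL17RB overlaps an antisense gene by 2583 bases and IL1R1 overlaps IL1R1-AS1 by 7254 bases. The library kit is stranded, but whether the quantification used strand is not given in the sources used here.

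The 250 bases before the start are shown for the 3 genes that passed after OGP46 with same-numbered samples compared as pairs (IL17RB, IL18R1 and IL17RE). They are also shown for IL18RAP, the partner and neighbour of IL18R1. They are RefSeq promoters of build GRCh38.p14, read 5′ to 3′ on the plus strand, at chr3:53846318-53846567, chr3:9902362-9902611, chr2:102355546-102355795 and chr2:102418371-102418620. IL17RE and IL18R1 have 2 starts each in that table and IL18RAP has 3, so the start at the gene's first base in RefSeq was taken, or for IL17RE that in GENCODE. The RefSeq start used for IL18R1 lies inside the longer GENCODE span given above, downstream of its first base. Capitals mark matches on either strand to TGTGGT (the RUNX motif), AGGAAG (an ETS motif) or TGANTCA (the AP-1 motif).
IL17RB: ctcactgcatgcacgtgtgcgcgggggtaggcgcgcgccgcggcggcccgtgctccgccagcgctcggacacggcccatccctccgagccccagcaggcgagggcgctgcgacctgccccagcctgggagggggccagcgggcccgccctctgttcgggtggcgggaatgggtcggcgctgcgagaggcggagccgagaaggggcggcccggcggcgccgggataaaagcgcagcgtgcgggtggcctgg
IL17RE: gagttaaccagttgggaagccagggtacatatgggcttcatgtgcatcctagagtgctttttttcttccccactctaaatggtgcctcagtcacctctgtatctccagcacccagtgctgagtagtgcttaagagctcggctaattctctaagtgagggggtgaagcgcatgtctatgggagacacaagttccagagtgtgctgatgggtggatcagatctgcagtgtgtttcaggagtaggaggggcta
IL18R1: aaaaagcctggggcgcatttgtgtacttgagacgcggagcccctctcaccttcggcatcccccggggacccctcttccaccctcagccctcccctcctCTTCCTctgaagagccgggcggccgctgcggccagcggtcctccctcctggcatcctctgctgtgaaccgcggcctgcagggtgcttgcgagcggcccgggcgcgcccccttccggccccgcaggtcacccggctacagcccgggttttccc
IL18RAP: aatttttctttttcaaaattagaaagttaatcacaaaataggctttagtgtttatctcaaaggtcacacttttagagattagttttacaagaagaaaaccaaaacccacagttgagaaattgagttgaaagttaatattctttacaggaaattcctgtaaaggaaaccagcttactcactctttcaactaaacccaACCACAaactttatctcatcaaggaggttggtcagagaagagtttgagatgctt
The IL17RB stretch held none of the 3 motifs and was 77.6% G or C, against a median of 58% over 35116 promoters, and that of IL17RE held none and was 50.4% G or C. The IL18R1 stretch (70.4% G or C) held 1 ETS match 152 bases before the start, a motif found in 28.7% of all promoters. The IL18RAP stretch (32.4% G or C) held 1 RUNX match 54 bases before the start, a motif found in 11% of all promoters. The AP-1 motif, in 6.57% of all promoters, was in none of the 4 stretches. A match is a run of letters and not a measured binding site.

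The samples were first checked against their labels. The 7 Kasumi-1 markers (RUNX1T1, CD34, KIT, POU4F1, TRH, HLA-DRA and ERG) summed to between 253 and 321 FPKM in the Kasumi-1 samples, between 0.799 and 4.05 FPKM in the NB4 controls and between 0.742 and 1.36 FPKM in NB4 with OGP46. From 4 of these markers the share of Kasumi-1 signal was 0.0309%, 0.264% and 1.12% in NB4 controls 1 to 3 and between 0.00764% and 0.0771% in NB4 with OGP46. Subtracting it left the unpaired count of receptor genes past the test in NB4 at 0. That count was 0 before as well, and the other fits were not repeated on the subtracted values. Whether the calls of those fits hold after subtraction was not tested. The 6 markers listed for NB4 and promyelocytes were HGF, MPO, ELANE, AZU1, PRTN3 and CTSG. They summed to between 2610 and 3950 FPKM in NB4 controls and between 9630 and 11900 FPKM in Kasumi-1 controls. All 6 were lower in NB4, so this list did not mark NB4, and the check rests on the Kasumi-1 markers. The pair of NB4 samples numbered 2 stood apart in NF-kB target genes. TNFAIP3, a feedback inhibitor of NF-kB singled out after its values were seen, was at 1.57 FPKM in NB4 control 2 against 13.2 and 13.3 FPKM in controls 1 and 3, and at 2.25 FPKM in OGP46 sample 2 against 14 and 16.3 FPKM in the others. Each NB4 call of a receptor gene from the comparison of pairs is therefore also given without that pair. The calls of the other genes named are counted without it where they are described.

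The level of the receptors in each line was described first. In NB4 controls IL17RA was the highest, with a mean of 22.8 ± 3.2 FPKM (SD, n = 3), above 90.5% of all genes. IL17RE at 6.67 ± 0.669 FPKM and IL1RAP at 3.14 ± 0.324 FPKM (SD, n = 3) followed, and the ranges of these 3 genes did not overlap. The other 7 were at or below 0.356 FPKM in every NB4 control. IL17RC (0.286 ± 0.0653 FPKM) and IL17RB (0.223 ± 0.0266 FPKM) had overlapping ranges, as had IL18R1 (0.12 ± 0.0353 FPKM), IL18RAP (0.086 ± 0.0402 FPKM) and IL1R1 (0.0767 ± 0.0567 FPKM). IL17RD was listed at 0 in 2 of the 3 controls and IL1R2 in all 3. The shared IL-17 chain and the IL-1 accessory chain thus lay above the chains for IL-17A, IL-25, IL-1 and IL-18 in every NB4 control.

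In Kasumi-1 controls the order began differently. IL17RE at 6.18 ± 0.767 FPKM and IL1RAP at 5.64 ± 1.19 FPKM had overlapping ranges at the top, and IL17RA came next at 3.13 ± 0.392 FPKM (SD, n = 3). IL17RC at 1.01 ± 0.135 FPKM, IL18R1 at 0.558 ± 0.0453 FPKM and IL18RAP at 0.125 ± 0.0482 FPKM followed without overlap, and IL17RB at 0.0646 ± 0.0394 FPKM overlapped IL18RAP. IL1R1 and IL1R2 were listed at 0 in all 3 Kasumi-1 controls and IL17RD in 2 of them. The IL-1-binding chain was thus above 0 in every NB4 control and in no Kasumi-1 control, while its accessory chain was above 2 FPKM in both, as the plot of levels shows.

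**Figure D1:**
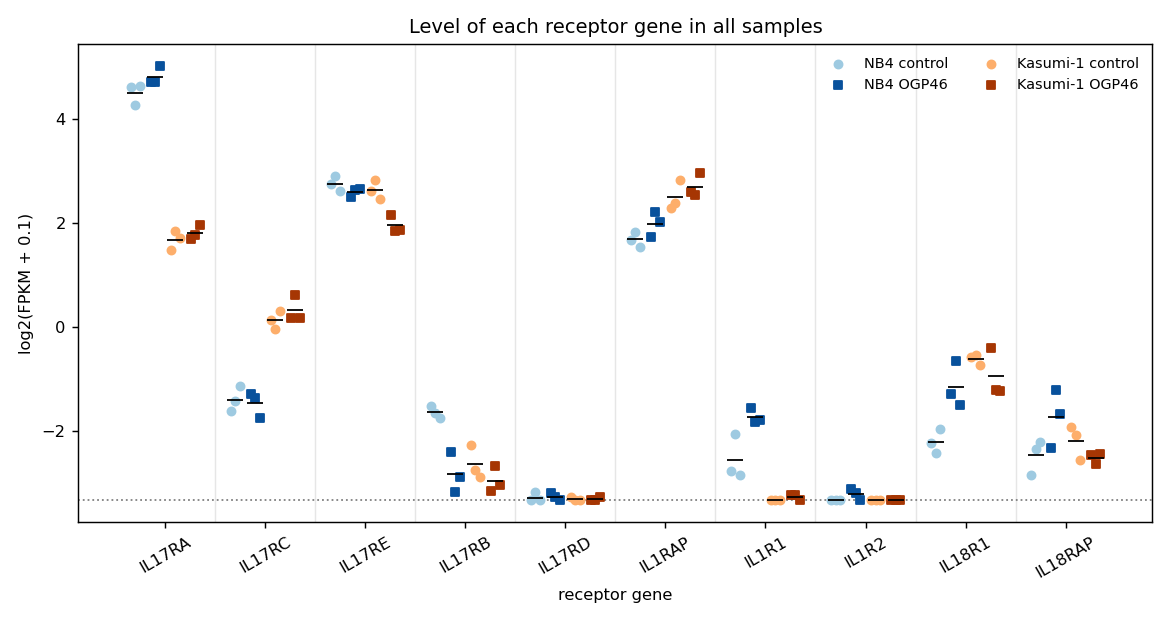
Level of the 10 receptor genes as log2(FPKM + 0.1) in each of the 12 samples, with circles for control, squares for OGP46, blue for NB4, orange for Kasumi-1 and a black line at the mean of 3 samples. The dotted line marks 0 FPKM. IL17RA stands highest in NB4 (19.1 to 32.5 FPKM), and IL17RD and IL1R2 lie on or near the dotted line in every sample.

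The first comparison was between the lines, NB4 control against Kasumi-1 control, with limma on log2(FPKM + 0.1) and Benjamini-Hochberg adjustment over all genes tested. A gene was called at an adjusted p below 0.05 and a log2 difference of at least 0.58 in size. Of the 10 receptor genes 7 passed the minimum mean of 0.1 FPKM, and 5 of the 7 differed, against 52.4% of all genes. IL17RA and IL17RB (2 of 7) were higher in NB4, where 22.7% of all 12302 genes tested were higher, and IL17RC, IL18R1 and IL1RAP (3 of 7) were lower, where 29.7% were lower. The median log2 difference was -0.28 over the 7 receptor genes and -0.10 over all genes. The same 5 genes had groups that did not overlap, which held for 34.6% of all genes on the higher and 43.1% on the lower side. Most genes tested thus differed between these lines, as most of the receptor genes did.

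IL17RA, the shared IL-17 chain, was at 24.3, 19.1 and 24.9 FPKM in NB4 controls and at 2.71, 3.49 and 3.2 FPKM in Kasumi-1 controls. Its log2 difference was 2.82 (SE 0.13, limma adjusted p = 1.8e-07), and all NB4 values lay above all Kasumi-1 values. IL17RC, its partner for IL-17A and IL-17F, went the other way, at 0.227, 0.274 and 0.356 FPKM in NB4 against 1.01, 0.879 and 1.15 FPKM in Kasumi-1 (log2 difference -1.53, SE 0.18, limma adjusted p = 6.4e-05). The median ratio of IL17RA to IL17RC within a sample was 70 in NB4 controls (range 69.7 to 107) and 2.78 in Kasumi-1 controls (range 2.69 to 3.97). IL17RE, the IL-17C partner, stood at 6.61, 7.37 and 6.03 FPKM in NB4 and 6.08, 6.99 and 5.46 FPKM in Kasumi-1, and its difference of 0.11 had a 95% interval from -0.16 to 0.38 on the log2 scale (limma adjusted p = 0.408).

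IL17RB, the IL-25 partner, was at 0.252, 0.218 and 0.199 FPKM in NB4 controls and at 0.109, 0.0487 and 0.0356 FPKM in Kasumi-1 controls (log2 difference 1.00, SE 0.23, limma adjusted p = 0.00340). IL18R1, the IL-18-binding chain, was lower in NB4, at 0.115, 0.0881 and 0.158 FPKM against 0.576, 0.592 and 0.507 FPKM (log2 difference -1.59, SE 0.19, limma adjusted p = 6.1e-05). Its partner IL18RAP was at 0.0409, 0.0989 and 0.118 FPKM against 0.165, 0.139 and 0.0715 FPKM, which overlap, and its difference of -0.28 was not called (interval -0.87 to 0.32, limma adjusted p = 0.358). IL1RAP, at 3.12, 3.47 and 2.82 FPKM in NB4 against 4.8, 5.12 and 7.01 FPKM in Kasumi-1, was lower in NB4 (log2 difference -0.81, SE 0.15, limma adjusted p = 0.00107). The calls of IL17RB and IL18R1 rest on low levels: with 1 FPKM added in place of 0.1 their log2 differences were 0.20 and -0.48, under the minimum size. The addition understates the change of low genes.

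In NB4 cells the question was which of these receptors changed with OGP46. IL17RB, the IL-25 chain, fell and IL18R1, the IL-18-binding chain, rose when same-numbered samples were compared as pairs, and no receptor gene passed in the unpaired test of the 6 NB4 samples alone. An unpaired limma model of all 12 samples, which shares its estimate of the spread, called 3 in NB4: IL17RB (adjusted p = 0.0130), IL18R1 (0.0209) and IL1R1 (0.0319). The share of all genes called by that model is not given here, so this count cannot be read against a background. Of the 8 receptor genes tested (IL17RD and IL1R2 were below the minimum), 0 were called unpaired by limma in these 6 samples, against 1.56% of all 11750 genes, and 4 of the 8 had an unadjusted p under 0.05, against 29.1% of all genes. With the replicate number as a block 1 of 8 was higher, against 5.06% of all genes, and 1 of 8 was lower, against 1.15%. With each sample also centred on its median, 0 were higher and 1, IL17RB, was lower. IL17RA, IL18R1 and IL1R1 (3 of 8) had all OGP46 values above all control values, which 32.7% of all genes had, and IL17RB (1 of 8) had all of them below, which 1.91% had. The median log2 fold change was 0.31 over the 8 receptor genes and 0.18 over all genes tested, and scaling each sample to the same FPKM sum lowered the latter to 0.06 and centring to -0.04.

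IL17RB was at 0.252, 0.218 and 0.199 FPKM in NB4 controls 1 to 3 and at 0.0894, 0.0111 and 0.0362 FPKM in OGP46 samples 1 to 3. Every OGP46 sample was below every control, and each pair fell. The log2 fold change was -1.18 (SE 0.30, interval -1.83 to -0.54), with a limma adjusted p of 0.0169 with the block and 0.0668 without it. Leaving out the pair numbered 2 gave -1.01 with an adjusted p of 0.0938 in limma, and leaving out pair 1 or 3 gave adjusted p-values of 0.0270 and 0.0302.

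IL18R1 was at 0.115, 0.0881 and 0.158 FPKM in controls and at 0.311, 0.539 and 0.256 FPKM with OGP46. Every OGP46 sample was above every control, and pair 2 had the largest step. The log2 fold change was 1.05 (SE 0.29, interval 0.43 to 1.68), with a limma adjusted p of 0.0233 with the block and 0.0761 without it. Without pair 2 it was 0.70 with an adjusted p of 0.223 in limma, and with the block and each sample centred on its median it was 0.83 with an adjusted p of 0.115, so this call does not hold under either. IL1RL1, which overlaps IL18R1, was at 0.0274, 0.0508 and 0.13 FPKM in controls and at 0.151, 0.0262 and 0.232 FPKM with OGP46, with overlapping groups and its lowest value in the sample where IL18R1 was highest.

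IL18RAP, the IL-18 accessory chain, was at 0.0409, 0.0989 and 0.118 FPKM in NB4 controls and at 0.0994, 0.334 and 0.216 FPKM with OGP46. It was higher in all 3 pairs although the groups overlapped, and its log2 fold change of 0.72 (SE 0.29, interval 0.10 to 1.35) was not called (limma adjusted p = 0.0860 with the block and 0.206 without it). The median ratio of IL18R1 to IL18RAP within a sample was 1.34 in controls (range 0.891 to 2.81) and 1.61 with OGP46 (range 1.18 to 3.12).

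IL1R1, the signalling IL-1 receptor, was at 0.0471, 0.142 and 0.0408 FPKM in NB4 controls and at 0.241, 0.182 and 0.192 FPKM with OGP46. The groups did not overlap, control 2 being the nearest. The log2 fold change of 0.83 (SE 0.30, interval 0.15 to 1.51) missed the threshold without the block (limma adjusted p = 0.119) and with it (0.0685). It passed where the spread was estimated over all 12 samples (0.0319). In the Kasumi-1 samples of that fit IL1R1 was between 0 and 0.00739 FPKM and hardly varied. Such values lower the spread estimated for this gene, so the pass says little about the spread in NB4. IL1RAP was at 3.12, 3.47 and 2.82 FPKM in controls and at 3.22, 4.55 and 3.96 FPKM with OGP46, higher in 3 of 3 pairs with overlapping groups (log2 fold change 0.30, SE 0.15, limma adjusted p = 0.212 without and 0.0780 with the block). The median ratio of IL1RAP to IL1R1 was 66.3 in controls (range 24.4 to 69.1) and 20.6 with OGP46 (range 13.4 to 25), and these ranges overlap. The decoy IL1R2, listed at 0 in all controls, was at 0.0155, 0.0103 and 0 FPKM with OGP46, so no fold is given.

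IL17RA was at 24.3, 19.1 and 24.9 FPKM in NB4 controls and at 26.2, 26.1 and 32.5 FPKM with OGP46. All OGP46 values were above all controls, but the log2 fold change of 0.31 (SE 0.09) was under the minimum size, with a limma adjusted p of 0.0318 with the block and 0.159 without it. With the block and each sample centred on its median it was 0.09, with a limma adjusted p of 0.349. IL17RC ranged from 0.227 to 0.356 FPKM in controls and from 0.198 to 0.314 FPKM with OGP46 (log2 fold change -0.07, interval -0.62 to 0.47), and IL17RE from 6.03 to 7.37 FPKM and from 5.54 to 6.22 FPKM (log2 fold change -0.16, interval -0.40 to 0.08). Neither was called with or without the block. IL17RD stayed between 0 and 0.0115 FPKM in NB4. Against the IL17RB fall, the chain it pairs with was not lower in any OGP46 sample.

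**Figure D2:**
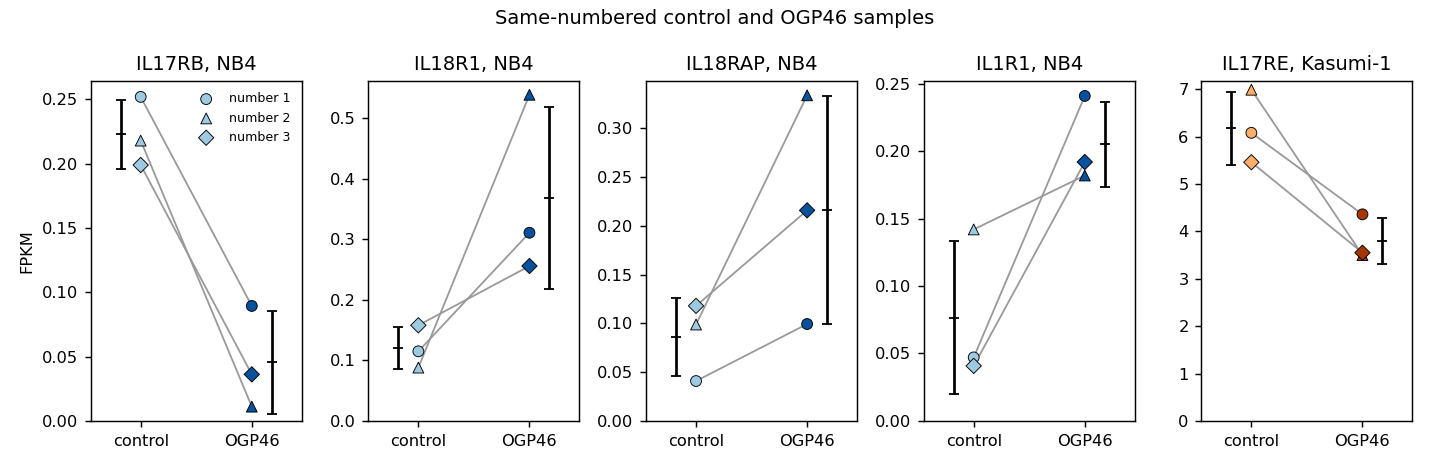
FPKM of 5 receptor genes in same-numbered control and OGP46 samples, joined by lines, with bars at the side for the mean and SD of 3 samples, each panel with its own axis from 0. IL17RB falls in all 3 NB4 pairs, IL18R1, IL18RAP and IL1R1 are higher with OGP46 in all 3 NB4 pairs, and IL17RE falls in all 3 Kasumi-1 pairs.

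Markers of other cell types moved in NB4 with these genes. The 6 monocyte and macrophage markers summed to between 14 and 16.1 FPKM in controls and between 23.3 and 31.1 FPKM with OGP46. With the block 5 of 6 rose, against 5.06% of all genes, and 5 also without pair 2. Without the block 3 rose, where 1.56% of all genes were called in either direction. Of the 6 markers of promyelocytes 4 fell with the block, with or without pair 2, against 1.15% of all genes with the block. Among these, ELANE was at 0.504, 3.3 and 14.5 FPKM in NB4 controls 1 to 3, the order of their shares of Kasumi-1 signal. Its mean in Kasumi-1 controls was 1500 FPKM. The part of the Kasumi-1 signal in its fall was not tested. Without the block 0 of the 6 markers fell, and 2 had an unadjusted p under 0.05 in limma, against 29.1% of all genes. With OGP46 5 of 6 still had a mean of at least 1 FPKM. The 6 T and NK cell markers summed to between 47.8 and 70.4 FPKM in controls and between 61.8 and 101 FPKM with OGP46, nearly all from NKG7 and CD3D, with CD2 and GNLY at 0 in all NB4 samples. CD3D rose with the block (log2 fold change 0.72, limma adjusted p = 2.2e-04, and 9.6e-04 without pair 2). The summed markers of B cells (at most 1.72 and 1.6 FPKM in controls and OGP46, with MS4A1 at 0) and of erythroid cells (at most 0 and 0.184 FPKM) were low, and the 4 epithelial and fibroblast markers summed to at most 6.42 and 7.66 FPKM, mostly EPCAM. Of these KRT8, a keratin at a mean of 0.42 FPKM in controls and 0.68 FPKM with OGP46, was called higher with the block (log2 fold change 0.58, limma adjusted p = 0.0353) and not without the block (0.0970) or without pair 2 (0.203). The part of such cells in the receptor values was not tested, and in these bulk samples fewer cells of a type and less RNA per cell cannot be told apart.

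In Kasumi-1 cells the same question was asked, and IL17RE, the IL-17C chain, was the receptor gene that fell. Of the 6 receptor genes tested (IL17RB, IL17RD, IL1R1 and IL1R2 were below the minimum) 0 were called unpaired by limma, against 0.0338% of all 11835 genes, and 1 of the 6 had an unadjusted p under 0.05, against 15.6% of all genes. With the replicate block 1 of 6 was lower, against 0.346% of all genes, and 0 of 6 were higher, against 0.270%, with 1 of the 6 higher at an unadjusted p under 0.05, against 16.8% of all genes. IL17RE was also the 1 gene of 6 with all OGP46 values below all controls, which 5.23% of all genes had, and 0 of 6 had all of them above, which 17.4% had. The median log2 fold change was -0.10 over the 6 genes and 0.05 over all genes tested.

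IL17RE was at 6.08, 6.99 and 5.46 FPKM in Kasumi-1 controls and at 4.36, 3.5 and 3.55 FPKM with OGP46. Each pair fell, and the groups did not overlap. The log2 fold change was -0.69 (SE 0.10, interval -0.90 to -0.47), with a limma adjusted p of 0.0107 with the block and 0.0611 without it. Unpaired it passed after TPM scaling (0.0335), after median centring (0.0339) and with a minimum mean of 1 FPKM (0.0339). It did not pass in the unpaired limma model of all 12 samples (adjusted p = 0.165), with moderation without a trend (0.162) or with no filter (0.241). Nor did it pass with 1 or 0.01 FPKM added in place of 0.1 (0.0588 and 0.0658). With the block but without pair 2 the log2 fold change was -0.54, under the minimum size, at a limma adjusted p of 0.0183. Without pair 1 or 3 it was -0.79 and -0.72 and stayed called. IL17RC, which starts just after IL17RE on the same strand, was at 1.01, 0.879 and 1.15 FPKM in controls and at 1.04, 1.43 and 1.03 FPKM with OGP46 (log2 fold change 0.18, interval -0.19 to 0.54), with overlapping groups. The median ratio of IL17RA to IL17RE was 0.5 in controls (range 0.446 to 0.585) and 0.949 with OGP46 (range 0.721 to 1.07).

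The other Kasumi-1 receptor genes were not called. IL18R1 was at 0.576, 0.592 and 0.507 FPKM in controls and at 0.663, 0.337 and 0.33 FPKM with OGP46, so that 1 OGP46 sample was the highest of the 6 and the other 2 were below all controls (log2 fold change -0.33, interval -0.86 to 0.20). IL18RAP was at 0.165, 0.139 and 0.0715 FPKM in controls and at 0.0817, 0.062 and 0.0848 FPKM with OGP46, with overlapping groups (log2 fold change -0.33, interval -0.96 to 0.29, limma adjusted p = 0.590). IL1RAP was higher in 3 of 3 pairs, at 4.8, 5.12 and 7.01 FPKM in controls and 5.98, 5.76 and 7.69 FPKM with OGP46, but its log2 fold change of 0.20 was not called (limma adjusted p = 0.133 with the block). IL17RA ranged from 2.71 to 3.49 FPKM and from 3.15 to 3.79 FPKM (log2 fold change 0.12, interval -0.13 to 0.38). IL17RB was between 0.0124 and 0.109 FPKM in all 6 samples. IL1R1, listed at 0 in all controls, was at 0.00739, 0.00686 and 0 FPKM with OGP46, and IL1R2 was listed at 0 in every Kasumi-1 sample.

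The Kasumi-1 monocyte and macrophage markers summed to between 14.1 and 18.7 FPKM in controls and between 19.9 and 22.8 FPKM with OGP46. Of 5 tested 0 were called by limma. In both fits 2 had an unadjusted p under 0.05, against 22.9% of all genes with the block and 15.6% without it. The 6 promyelocyte markers summed to between 9630 and 11900 FPKM in controls and between 7780 and 8980 FPKM with OGP46, which do not overlap. By limma 0 of 6 were called, with 5 at an unadjusted p under 0.05 with the block and 3 without it, against 22.9% and 15.6% of all genes. The 7 Kasumi-1 markers summed to between 285 and 321 FPKM in controls and between 253 and 289 FPKM with OGP46. Of these TRH, a hormone precursor, fell (36.9 ± 1.76 to 20.7 ± 1.88 FPKM, SD, n = 3, log2 fold change -0.84, limma adjusted p = 0.00179 with the block and 0.0103 without it), and HLA-DRA, a class II antigen-presenting chain, fell with the block (11.5 ± 1.32 to 6.73 ± 1.48 FPKM, log2 fold change -0.78, limma adjusted p = 0.00294, and 0.0747 without it). The part of these markers in the receptor values was not tested. From these same samples the study named IL1R1 and IL17RB in NB4 and IL18RAP and IL17RE in Kasumi-1, so their direction here is not independent evidence. The study reports significant falls of IL17RB in NB4 and of IL18RAP in Kasumi-1. Its calls came from its own analysis, which may differ in method from the limma fits here. In the NB4 samples alone IL17RB was called lower here with the block and not without it. IL18RAP was not called in Kasumi-1, with overlapping groups (limma adjusted p = 0.590 without the block). Its log2 fold change there was -0.33, and -0.59 with 0.01 FPKM added in place of 0.1.

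**Figure D3:**
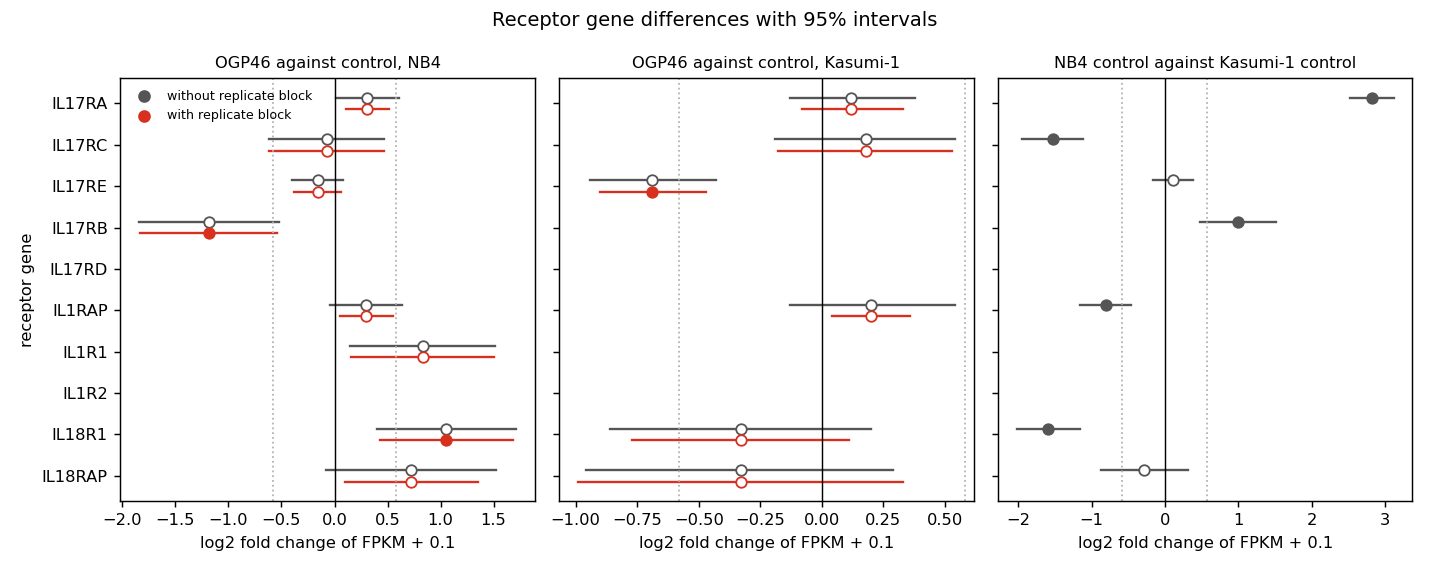
Log2 fold change of FPKM + 0.1 with 95% intervals for the 10 receptor genes, OGP46 against control in NB4 and in Kasumi-1, without (grey) and with (red) the replicate block. The panel of NB4 control against Kasumi-1 control shows the fit without the block only. Filled points passed the test, dotted lines mark the minimum size of 0.58, and genes without a point were below the minimum mean. IL17RB (-1.18) and IL18R1 (1.05) are filled in NB4 and IL17RE (-0.69) in Kasumi-1, all with the block.

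Whether the OGP46 response differed between the lines was tested as the interaction of line and treatment over all 12 samples. Of the 6 receptor genes tested 0 passed by limma at an adjusted p below 0.05, without the block (against 0.00% of 12309 genes) or with it (against 1.93%), and 3 of the 6 had an unadjusted p under 0.05 in both fits, against 11% of all genes without the block and 17.8% with it. These 3 were IL18R1, with a NB4 minus Kasumi-1 difference in log2 fold change of 1.38 (SE 0.35, interval 0.60 to 2.17, limma adjusted p = 0.0841 with the block), IL18RAP with 1.05 (SE 0.30, interval 0.38 to 1.73, adjusted p = 0.117) and IL17RE with 0.53 (SE 0.15, interval 0.18 to 0.87, adjusted p = 0.121). For IL17RA, IL17RC and IL1RAP the intervals were -0.10 to 0.47, -0.91 to 0.40 and -0.21 to 0.41 with the block. IL17RB, below the minimum in this comparison, was not tested.

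The genes of the ligands were measured in the same samples. IL1B, the secreted agonist of IL1R1, was at 2.1, 0.436 and 0.984 FPKM in NB4 controls and 7.67, 2.14 and 4.33 FPKM with OGP46. IL1B rose with the block (log2 fold change 1.97, SE 0.12, limma adjusted p = 3.3e-06, and 0.0817 without it). It stayed called without pair 2 (log2 fold change 1.92). In Kasumi-1 it was at 0.599, 1.07 and 1.11 FPKM and 1.39, 0.829 and 1.59 FPKM (log2 fold change 0.42, limma adjusted p = 0.287 with the block). The difference between the lines was 1.55 with an adjusted p of 0.0342 with the block in limma and 0.454 without it. IL1B was the 1 gene called of the 3 IL-1 family ligands and antagonists tested in NB4, where 5.06% of all genes were called higher with the block. In Kasumi-1 0 of 3 were called by limma, with 0 at an unadjusted p under 0.05.

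Between the controls 3 of the 4 IL-1 family ligands and antagonists tested were called by limma, 1 higher and 2 lower in NB4, against 52.4% of all genes. IL1B, whose control values overlapped between the lines, was not called. IL18, the ligand of IL18R1, was at 8.65, 8.21 and 7 FPKM in Kasumi-1 controls and at 0.087, 0.0472 and 0 FPKM in NB4 controls (NB4 against Kasumi-1 log2 difference -5.84, SE 0.23, limma adjusted p = 8.5e-08). The IL-1 receptor antagonist gene IL1RN was at 2.71, 2.64 and 2.07 FPKM in NB4 controls and 0.0156, 0.122 and 0 FPKM in Kasumi-1 controls (log2 difference 4.22, SE 0.29, limma adjusted p = 1.8e-06). IL18BP, which binds and blocks IL-18, was lower in NB4 (log2 difference -0.80, SE 0.16, limma adjusted p = 0.00160). For IL18, IL1RN and IL18BP the line with the higher level had all 3 controls above all 3 of the other line. Of the 6 IL-17 ligands, IL17A and IL25 were listed at 0 in every sample and only IL17D passed the minimum, at 0.659, 0.594 and 0.601 FPKM in NB4 controls and 0.432, 0.557 and 0.374 FPKM with OGP46 (log2 fold change -0.39, limma adjusted p = 0.147 with the block). Of the 5 other IL-1 family receptors SIGIRR, an inhibitory member, was the highest, at 8.47 to 9.55 FPKM in Kasumi-1 controls and 2 to 3.95 FPKM in NB4 controls (log2 difference -1.58, SE 0.21, limma adjusted p = 1.3e-04).

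The shared signalling genes were measured in both lines and few of them passed the test with OGP46. Of the 13 genes of the MYD88 arm tested in NB4, IRAK2 rose with the block (log2 fold change 0.84, SE 0.12, limma adjusted p = 9.9e-04, and 0.321 without the block). It was at 1.82, 0.525 and 1.8 FPKM in controls and 3.55, 1.01 and 3.16 FPKM with OGP46, and stayed called without pair 2 (log2 fold change 0.86). Of the 13, 9 had an unadjusted limma p under 0.05 with the block and 3 without it, against 39.4% and 29.1% of all genes. MYD88 itself was at 8.71, 8.78 and 8.79 FPKM and 11.5, 10.1 and 10.3 FPKM (log2 fold change 0.27, limma adjusted p = 0.0510 with the block). By limma 0 of 8 genes of the IL-17 arm and 0 of 5 shared NF-kB genes were called in NB4, with or without the block. With the block 6 and 1 of them had an unadjusted p under 0.05, against 39.4% of all genes. Without the block 3 and 0 of them did, against 29.1%. TRAF4, a TRAF family adaptor, reached an adjusted p of 0.0122 with the block at a log2 fold change of 0.46, under the minimum size. In Kasumi-1 0 of 13, 0 of 8 and 0 of 5 genes of these lists were called by limma in both fits. At an unadjusted p under 0.05 were 2, 0 and 0, against 22.9% of all genes with the block and 15.6% without it.

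Of the 14 genes downstream of these receptors tested in NB4, 7 rose with the block, against 5.06% of all genes, and none fell. CEBPB, a transcription factor of the IL-17 and IL-1 response, was the 1 that rose without the block (log2 fold change 0.82, SE 0.11, limma adjusted p = 0.0289). There 1.56% of all genes were called in either direction. The median log2 fold change over the 14 was 0.69. The 5 with the smallest adjusted p with the block were the chemokine CXCL8 (log2 fold change 1.91), the calprotectin chains S100A9 (1.14) and S100A8 (0.83), the chemokine CCL2 (1.22) and CEBPB, and CCL20 and CXCL2 were the others. Without pair 2 these genes rose with the block except CCL20, whose log2 fold change of 0.56 was under the minimum size (limma adjusted p = 0.0238). CXCL8 was at 8.19, 1.67 and 7.69 FPKM in NB4 controls and 29.5, 7.2 and 27.8 FPKM with OGP46, so the groups overlapped through pair 2 while each pair rose. In Kasumi-1 2 of 13 rose with the block, against 0.270% of all genes. They were CXCL8 (log2 fold change 1.44, SE 0.17, limma adjusted p = 0.00505) and CXCL1 (1.00, SE 0.13, adjusted p = 0.00759). Without the block 0 rose, and 8 had an unadjusted p under 0.05 in limma, against 15.6% of all genes. These genes also answer to many signals other than IL-1 and IL-17.

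**Figure D4:**
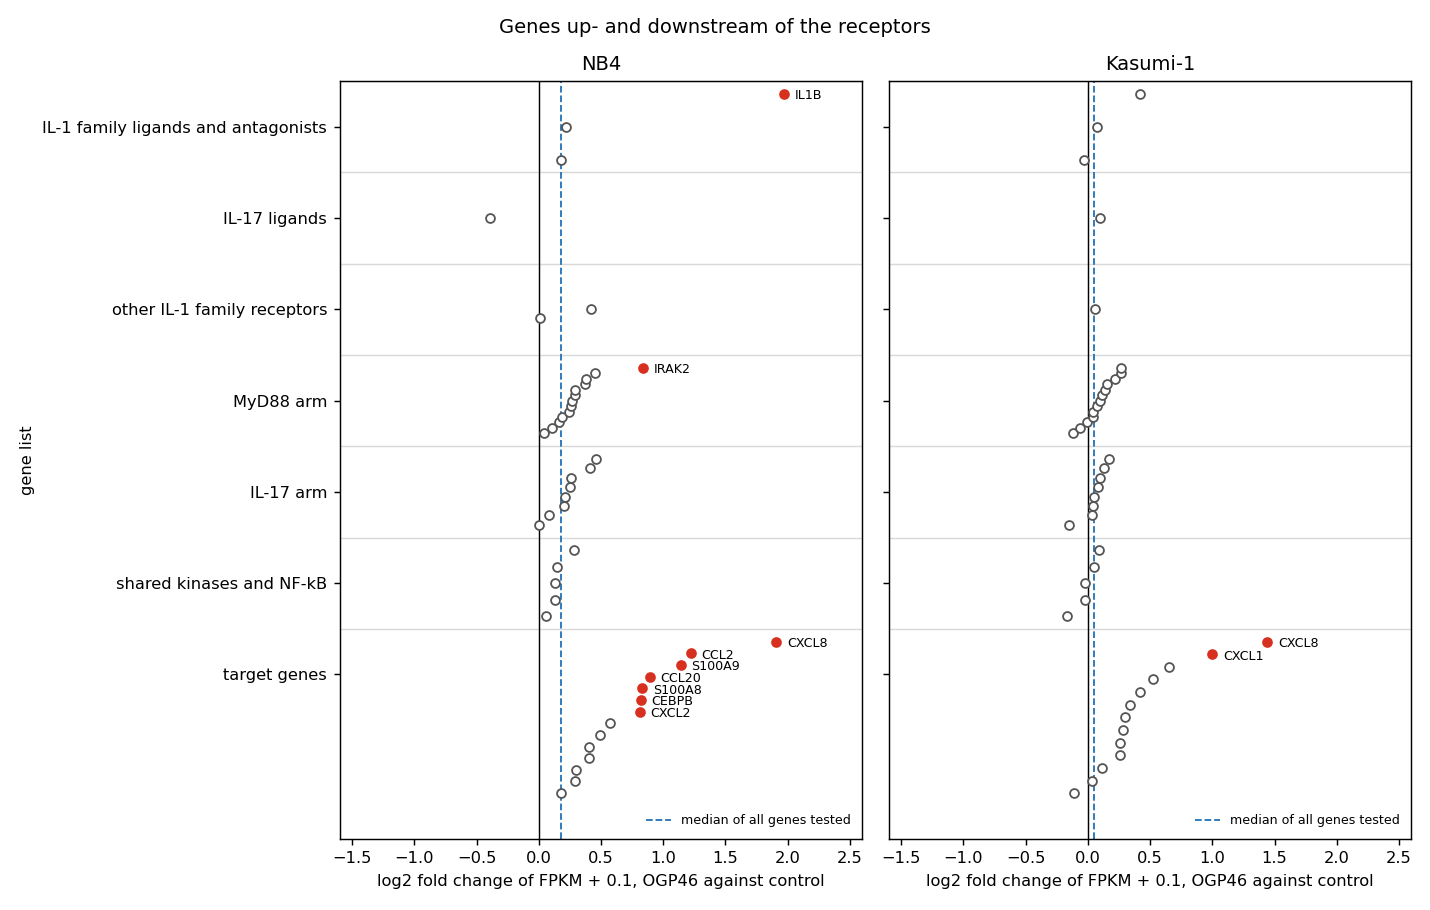
Log2 fold change of FPKM + 0.1, OGP46 against control with the replicate block, for the genes tested in 7 lists around the receptors, in NB4 and in Kasumi-1, 1 point per gene. Filled red points passed the test and are named, and the dashed line is the median of all genes tested (0.18 in NB4 and 0.05 in Kasumi-1). The named points are mostly target genes, with IL1B furthest to the right in NB4.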

How the data were processed

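NB4 and Kasumi-1 cells, 3 control and 3 OGP46 samples each, were analysed as labelled. The deposited values are FPKM per gene symbol, made by the authors from poly(A) mRNA libraries of a stranded kit. Per the labels, the submitters' processing notes name Trimmomatic, HISAT2, Cufflinks, HTSeq and hg38, without versions. Depth is unknown, so no counting error is given, and p-values measure the spread between 3 samples. With 1 pair left out, the fit with the block keeps few degrees of freedom of its own. Its p-values then rest mostly on the spread shared over genes, so a smaller p than in the full fit is not stronger evidence. Symbols turned into dates (27) were left out, which left 20003 genes. Over the samples compared, a minimum mean of 0.1 FPKM was required, and log2(FPKM + 0.1) was tested with limma 3.58.1 in R 4.3.3 (moderation with a trend, Benjamini-Hochberg adjustment over all genes tested). The unpaired fit was checked on simulated data with the same spread for every gene and changes only in genes of at least 1 FPKM. That check covers neither the block nor genes at lower levels. With 3 against 3 samples an exact permutation test of 1 gene cannot go below a two-sided p of 0.1, so none is given. Calls needed an adjusted p below 0.05 and a minimum size of 0.58 on the log2 scale, except for the interaction, where no minimum size was set. Intervals are 95% from the moderated fit.

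Same-numbered samples were taken as pairs within a line, because the deviations of every pair from the group means correlated above 0.1 over genes (0.35, 0.62 and 0.20 in NB4, and 0.22, 0.16 and 0.40 in Kasumi-1). Between the lines' controls they did not (-0.05, 0.02 and -0.00). The highest correlation of NB4 controls 1 to 3 with an OGP46 sample of another number was 0.22, -0.34 and 0.18. In Kasumi-1 it was 0.10, 0.03 and -0.22. Unlike pairs of NB4 samples thus also passed 0.1, and for number 3 the margin was small. The pairing is an assumption on which the calls with the block depend. The 10 receptor genes, the pathway lists and the marker lists were chosen with earlier results of these data known. All 10 receptor genes are described, and list genes are named when called, up to the 5 with the smallest adjusted p per list and line, together with ligands and partners named for their role. Promoters were found in RefSeq for 9 of the 10.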

Additional observations from a re-analysis of the deposited data

How the results depend on the processing

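With the settings of the report and no replicate block, 0 receptor genes were called in NB4 and 0 in Kasumi-1. In NB4 the count was 2 with the block, 1 with the block and median centring, and 3 (IL17RB, IL18R1 and IL1R1) with the spread shared over 12 samples. For that last fit the share of all genes called is not given. In Kasumi-1 the count was 1, IL17RE, with the block, with the block and median centring, and without the block after median centring, after TPM scaling and with a minimum mean of 1 FPKM. It was 0 with the spread shared over 12 samples. Leaving out 1 sample at a time gave 0 to 0 in both lines and for the interaction, and 5 to 5 between controls. Leaving out 1 pair under the block, an alternative chosen after seeing the data like the block with no filter, gave 0 to 2 in NB4 and 0 to 1 in Kasumi-1, with the 0 in both lines from leaving out pair 2. Between the controls 3 genes were called with a pseudocount of 1 and 2 with a minimum mean of 1 FPKM, which tests fewer genes. The same 5 were called there with the block. With the block and no filter 0 receptor genes were called in either line, the adjusted p being 0.153 for IL17RB and 0.288 for IL18R1 in NB4 and 0.317 for IL17RE in Kasumi-1 in limma, and IL1RAP between the controls was at 0.0819.

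The sign turned for IL17RC in NB4 (0.05 to 0.07 without 1 sample, range -0.19 to 0.07) and for IL1RAP in the interaction (-0.05 under TPM scaling, median centring and the block with median centring, and -0.07 to 0.23 without 1 sample). Neither was called under any setting, and the cause was not tested. Low levels limit the IL17RB, IL18R1, IL18RAP and IL1R1 values, whose fold changes shift with the pseudocount: that of IL17RB in NB4 was -0.23 with 1 FPKM added and -2.34 with 0.01 FPKM added. The block changed no other call among the receptor genes.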
